A study of Homo sapiens with 42 samples.

Results

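The genes described here are CIITA and 9 genes of the major histocompatibility complex (MHC) class II pathway: CD74, HLA-DRA, HLA-DRB1, HLA-DQA1, HLA-DQB1, HLA-DPA1, HLA-DPB1, HLA-DMA and HLA-DMB. They are 10 of 19970 protein-coding genes of RefSeq (GRCh38.p14). A peak was counted when its summit lay inside a gene or within 20 kb of either end, which gave 2229 of the 9861908 deposited peaks, each counted once. The windows of HLA-DQA1 and HLA-DQB1 overlap, as do those of HLA-DMA and HLA-DMB and those of HLA-DPA1 and HLA-DPB1, so the 10 genes form 7 separate loci and the genes of a pair share peaks. The HLA genes lie on chromosome 6 between HLA-DRA (chr6:32439887-32445046) and HLA-DPB1 (chr6:33075990-33089696), CD74 at chr5:150401639-150412910 and CIITA at chr16:10866206-10943021.

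Chromatin accessibility was measured by ATAC-seq, in which a transposase cuts open DNA, in 42 samples. They came from 7 human cancer cell lines, all of wild-type genotype per the labels: the acute myeloid leukemia line MV411, the melanoma line A375 and uveal melanoma line 92-1, the rhabdomyosarcoma line RD, and the carcinoma lines 22RV1 (prostate adenocarcinoma), DU4475 (invasive breast carcinoma) and HCT116 (colorectal adenocarcinoma). Each line received DMSO, the negative control, or FHT-1015, a dual inhibitor of SMARCA4 and SMARCA2, the motor subunits of BAF remodelling complexes, for 4 h, with 3 biological replicates in each of the 14 groups. The questions were where class II loci were accessible in each line, and how they differed with the inhibitor.

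MHC class II molecules display peptides from engulfed material to CD4+ T cells and are found mainly on professional antigen-presenting cells such as dendritic cells, macrophages and B cells. Their genes share a promoter module of S, X and Y boxes, bound by the RFX complex, CREB1 and NF-Y. CIITA is a coactivator that binds no DNA itself but docks on these factors, and class II expression follows its presence. CIITA is transcribed from alternative promoters used in myeloid cells, in lymphoid cells and after interferon gamma.

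The promoters of 8 of the 10 genes could be matched to RefSeq promoter windows, from 250 bases before to 50 after a start, and those of CIITA and HLA-DRA were not used here. The letters searched for, on both strands, were ACNGATG (the core of the X1 box) and GATTGG (the core of the Y box, whose reverse strand reads CCAATC). Of 35116 promoters, 7.65% held the first, 15.1% the second and 350 (1.0%) held both. An X1 core followed on the same strand by a Y core with 28 to 29 bases between their first letters, a spacing taken after the matches were seen, stood in 4 of the 35116 promoters. These 4 belong to HLA-DRB1, HLA-DQB1, HLA-DMA and HLA-DRB5. The 130 bases before the start of the 3 listed genes that hold this pair, and of HLA-DMB, which holds an X1 core and, on the other strand and farther away, a Y core, are printed because peaks at these 4 starts are described next. All are on the minus strand of GRCh38.p14, at chr6:32589849-32589978, chr6:32666658-32666787, chr6:32953098-32953227 and chr6:32941029-32941158 in that order, and capitals mark the cores.
HLA-DRB1: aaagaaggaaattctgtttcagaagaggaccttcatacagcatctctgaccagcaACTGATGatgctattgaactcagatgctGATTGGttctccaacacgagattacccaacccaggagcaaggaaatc
HLA-DQB1: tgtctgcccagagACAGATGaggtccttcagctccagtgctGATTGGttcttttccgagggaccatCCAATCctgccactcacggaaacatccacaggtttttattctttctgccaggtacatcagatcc
HLA-DMA: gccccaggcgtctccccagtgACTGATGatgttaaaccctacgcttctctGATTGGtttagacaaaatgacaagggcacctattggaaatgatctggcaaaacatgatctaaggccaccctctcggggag
HLA-DMB: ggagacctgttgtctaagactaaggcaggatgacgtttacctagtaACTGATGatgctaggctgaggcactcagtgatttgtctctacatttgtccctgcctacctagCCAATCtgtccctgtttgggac
In the HLA-DRB1 promoter the X1 core began at position −75 and the Y core at −47, counted from the start. The pair lay at −117 and −89 in HLA-DQB1, which holds a further Y core on the other strand, and at −109 and −80 in HLA-DMA. CD74 held an X1 core only, HLA-DPB1 a Y core only, and HLA-DQA1 and HLA-DPA1 held neither core. A match is a run of letters, not a measured binding site.

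The deposited lists were lenient, with 114291 to 431956 peaks per sample, so the counts that follow use strict peaks, those with a −log10 q of at least 5, of which a sample had 1412 to 121774. FHT-1015 replicates 3 and 2 of 92-1 (1412 and 2037 strict peaks) and replicate 2 of RD (13760) had the fewest for their lines. Results are therefore also given in the 50000 strongest peaks of each list, which fixes the number of peaks but not their quality, and in lists thinned to an equal background within a line, where 92-1 was too shallow to enter. Peaks do not count reads, and a peak absent from a list may be a weak one that missed the threshold. HLA genes have near-identical relatives and many haplotypes, so reads of one gene can be placed at another or at none, and the values of single HLA genes are uncertain for this reason. In MV411, 3 of 5 myeloid marker genes (SPI1, CD33 and PTPRC) had a strict peak at their start in every DMSO sample, MPO had none in any, and no start of 4 B cell markers was covered. RD covered 3 of 4 skeletal muscle markers, 22RV1 2 of 4 prostate and DU4475 2 of 4 breast and epithelial markers, while 92-1 and A375 covered 1 of 5 melanoma markers and HCT116 none of 4 colon markers. The prostate, breast, melanoma and colon lists did not set the lines apart. RD also covered 2 of 4 prostate, 22RV1 2 of 4 breast and epithelial and DU4475 2 of 4 colon markers. Of the 5 melanoma markers, 22RV1, RD, DU4475 and MV411 covered 2 each.

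In DMSO, the loci were most populated in the myeloid line. MV411 had 32, 34 and 30 strict peaks over the 7 loci (32.0 ± 2.0, SD, n = 3) and A375 had 22, 24 and 11. DU4475 had 15, 12 and 13, 22RV1 11, 14 and 12, 92-1 12, 9 and 3, HCT116 9, 8 and 10 and RD 8, 9 and 9. Every MV411 sample lay above every sample of the other lines. MV411 also had the most strict peaks genome-wide, 112800 ± 8307 (SD, n = 3), and these loci made up 0.0285% of them, against 0.0381% in A375 and 0.0371% in HCT116. In the 50000 strongest peaks, MV411 had 15, 13 and 12 at the loci, A375 15, 21 and 17 and HCT116 13, 14 and 13, so that MV411 was no longer above the others. The order of the lines therefore depended on how many peaks were admitted. No listed gene had more of the 50000 strongest peaks in every sample of one line than in every sample of the others, whereas 16.4% of all genes had.

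Starts of class II genes were covered by a strict peak in few lines. A start counted as covered when a strict peak overlapped its promoter window by at least 100 bp, or for CIITA and HLA-DRA, whose strand was not given, 500 bp on either side of a gene end. Over the 7 lines, 16 of 70 gene and line pairs were covered in all 3 DMSO samples. CIITA gave 6 of these, all through its upper end, where the start of the neighbouring gene DEXI lies, and its lower end was covered in no sample. Without it, 10 of 63 pairs remained.

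MV411 covered 4 of 10 listed genes (CIITA by its upper end, CD74, HLA-DRB1 and HLA-DMA), against 53.4% of all genes. In 22RV1 4 were covered (CIITA, HLA-DQB1, HLA-DPB1 and HLA-DMB) against 56.5%, and in A375 3 (CIITA, CD74 and HLA-DRB1) against 41.8%. HCT116 covered 2 (CIITA and HLA-DQB1) against 34.4%, and 92-1 covered 1 (HLA-DMB) against 15.9%. RD and DU4475 covered CIITA alone, 1 of 10 each, against 52.7% and 56.5% of all genes. In every line counted for CIITA this was by its upper end, at the start of DEXI, so it need not mark a CIITA start. Starts inside the CIITA record were not scored. The share of listed genes with a covered start was thus below that of all genes in every line, and which genes they were differed between lines.

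**Figure D1:**
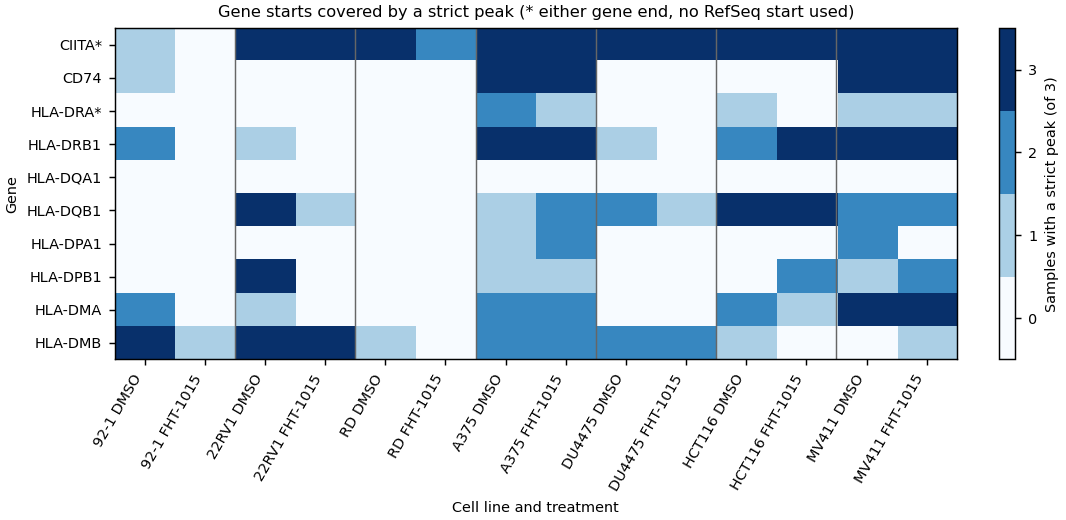
Number of samples (0 to 3, shade) with a strict peak at the start of each gene (rows) in each line and treatment (columns); for CIITA and HLA-DRA, marked with an asterisk, either gene end was used. CIITA was covered only by its upper end, where the start of DEXI lies. CD74 was covered in all samples of A375 and MV411, HLA-DRB1 likewise, HLA-DMA in all 6 of MV411, and HLA-DQA1 in none.

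CD74, the invariant chain that escorts class II molecules and blocks their groove, was covered at its start in all 6 samples of A375 and all 6 of MV411, and otherwise in 1 DMSO sample of 92-1. HLA-DRB1, the DR beta chain, was covered in the same 12 samples, in 2 DMSO and 3 FHT-1015 samples of HCT116, and in 2, 1 and 1 DMSO samples of 92-1, 22RV1 and DU4475. HLA-DMA, a chain of the DM molecule that exchanges the peptide, was covered in all 6 samples of MV411. Its start was also covered in 2 DMSO and 2 FHT-1015 samples of A375 and in 2 and 1 of HCT116. In 92-1 and 22RV1 it was covered in 2 and 1 DMSO samples. In the 3 MV411 DMSO lists the peak at the HLA-DMA start stood at the 90.9th to 95.6th percentile of strength, with a fold enrichment over background of 19.4 to 20.96 by the authors' values. It was the start with the printed promoter pair that ranked highest in that line, since the HLA-DRB1 peak stood at the 73.6th to 85.3th percentile and the HLA-DQB1 peak, found in 2 MV411 DMSO samples, at the 66.9th to 69.0th.

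HLA-DMB, the DM partner chain, showed another distribution: its start was covered in all 6 samples of 22RV1, all 3 DMSO samples of 92-1 and none of the MV411 DMSO samples. It was also covered in 2 DMSO and 2 FHT-1015 samples each of A375 and DU4475. Single samples covered it in RD and HCT116 with DMSO and in 92-1 and MV411 with FHT-1015. HLA-DQB1, the DQ beta chain, was covered in all 6 samples of HCT116 and in 3 DMSO and 1 FHT-1015 samples of 22RV1. For MV411 these numbers were 2 and 2, for DU4475 2 and 1 and for A375 1 and 2. HLA-DPB1, the DP beta chain, was covered in all 3 DMSO samples of 22RV1 and in none of its FHT-1015 samples. This was the 1 start lost in a line, of the 16 pairs covered in DMSO, against 2.56% over all genes. The lower end of HLA-DRA, the DR alpha chain, had a peak in 2 A375, 1 HCT116 and 1 MV411 DMSO samples.

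CIITA carried the most strict peaks of the 10 genes in MV411, in a gene record of 76.8 kb. With DMSO the window held 14, 16 and 13 strict peaks in MV411, 7, 9 and 5 in A375, 5, 3 and 0 in 92-1, 4, 4 and 4 in DU4475, 3, 4 and 3 in HCT116, 3, 3 and 4 in RD and 3, 3 and 3 in 22RV1. MV411 lay above all other samples by this count, as it did for 13.8% of all genes. In the 50000 strongest peaks MV411 had 8, 6 and 6 and A375 5, 8 and 7, and these overlapped.

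The peaks of the CIITA window belonged to 25 regions, 500 bp windows around summits, of which 15 were called in at least 3 samples. The upper end is shared by genes: the region with the most calls, at chr16:10942260-10942759, lay 42 bp from the start of DEXI and was called in 20 of 21 DMSO and 18 of 21 FHT-1015 samples. The region 1.42 kb beyond the CIITA record was called in 18 and 18. In the body of CIITA the lines differed. DU4475 and RD had no strict peak below DEXI in any sample, and 22RV1 had 1 in each DMSO sample, 52.7 kb above the lower end. A375 and MV411 shared regions 3.6 kb below and 5.1 kb above the lower end, each called in all 3 DMSO samples of both lines. The region at 5.1 kb was also called in 2 DMSO samples of HCT116. A375 alone had a call 5.6 kb above the lower end, part of the same peaks as its call at 5.1 kb.

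MV411 had calls in all 3 DMSO samples at 20.8, 25.6, 31.1 and 67.1 kb above the lower end, where no other line had a call. Over the 7 loci, 9 of the 23 regions present in all 3 MV411 DMSO samples occurred in no other DMSO sample, against 55.2% of all such regions of the line. For A375 this was 1 of 9, against 11.1%. The loci thus held no larger share of regions seen in one line than the genome did.

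**Figure D2:**
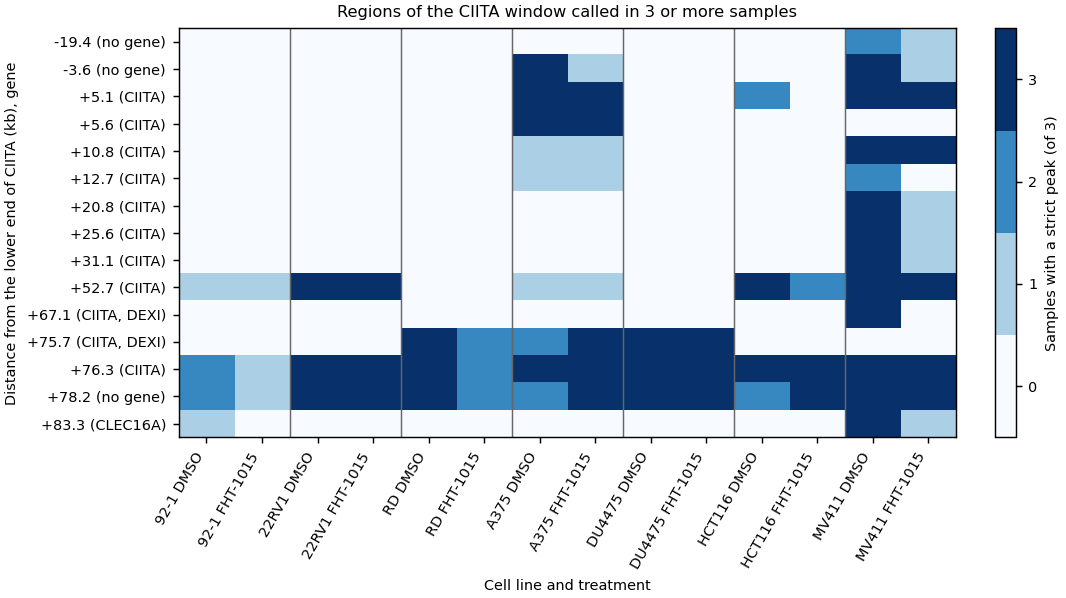
Number of samples (0 to 3, shade) with a strict call at each region of the CIITA window called in at least 3 samples, by distance from the lower end of the gene in kb (rows) and by line and treatment (columns). Regions at 20.8 to 31.1 kb and at 67.1 kb were called in MV411 alone, and those at 76.3 and 78.2 kb in most lines.

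With FHT-1015, CIITA was the 1 listed gene that passed the test over the 7 lines. Its window held 7, 7 and 7 strict peaks in MV411 and 2, 2 and 2 in DU4475, below every DMSO sample of these lines. It held 4, 12 and 4 in A375, 3, 0 and 0 in 92-1, 3, 0 and 3 in RD, 3, 2 and 4 in HCT116 and 4, 3 and 3 in 22RV1, where the treatments overlapped. The mean fell from 5.38 ± 4.15 to 3.57 ± 2.8 peaks (SD over 21 samples each), a difference of −1.81 that was negative in 6 of 7 lines (exact permutation test within lines, two-sided, p = 0.0094, Benjamini-Hochberg adjusted p = 0.0288 over 19324 genes). Fewer strict peaks were called for 40.3% of all genes tested and more for 0.0103%, so 1 of 10 was a smaller share than over the genome. This comparison was not matched for peak number. Apart from CIITA, HLA-DMA and CD74, the listed genes averaged 0.38 (HLA-DRA) to 1.33 (HLA-DMB) strict peaks with DMSO. They had little room to fall, so the share does not show that they changed less. The CIITA call depended on single lines and on the set of peaks. Its adjusted p by the same permutation test was 0.31 without MV411, 0.0519 without 92-1 and 0.0903 without the 3 libraries with the fewest strict peaks. In thinned lists it was 0.136 and in the 50000 strongest peaks 0.832, where the difference was −0.33.

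**Figure D3:**
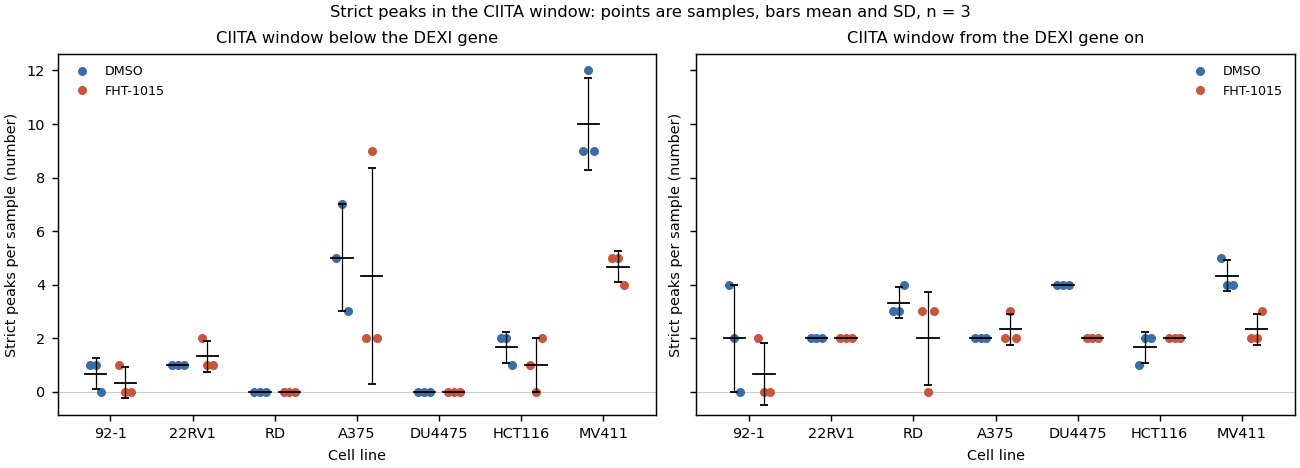
Strict peaks per sample in the CIITA window below the DEXI gene (left) and from DEXI on (right), by cell line, DMSO in blue and FHT-1015 in red; points are samples and bars the mean and SD (n = 3). MV411 samples lie between 9 and 12 with DMSO and between 4 and 5 with FHT-1015 in the left panel.

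Both ends of the CIITA window contributed, in a split made after the values were seen and not tested. Below DEXI, MV411 had 9 to 12 strict peaks with DMSO and 4 to 5 with FHT-1015, and from DEXI on 4 to 5 and 2 to 3. The 6 other lines together had 25 and 21 below DEXI and 45 and 33 from DEXI on. In DU4475 all CIITA peaks, 4 per DMSO sample and 2 per FHT-1015 sample, lay from DEXI on, next to the starts of DEXI and CLEC16A. Peaks were counted by summit, and the same 3 regions there were called in all 3 DU4475 samples of each treatment. The lower DU4475 count was thus one of summits, with none of these 3 regions lost.

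In MV411, 11 regions of the CIITA window were called in all 3 DMSO samples and 5 in all 3 FHT-1015 samples. Those called in all 6 lay 5.1, 10.8, 52.7, 76.3 and 78.2 kb above the lower end. The regions at 20.8, 25.6 and 31.1 kb were called in 3 DMSO samples and 1 FHT-1015 sample each. The region at chr16:10933009-10933508, inside CIITA and DEXI, was called in 3 MV411 DMSO samples, at the 70.6th to 81.6th percentile and a fold of 8.88 to 11.2, and in no FHT-1015 sample. It was also present in 3 against 0 samples in thinned lists, and in the full deposited lists in 3 against 1.

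Thinned lists gave 8, 11 and 9 CIITA peaks in MV411 with DMSO and 5, 6 and 5 with FHT-1015, still without overlap, as for 13.6% of all genes in that line. In DU4475 thinned lists, the treatments overlapped. The number of strict peaks in the whole genome moved with the treatment in MV411, 53200 ± 477 in the inhibitor group against 112800 ± 8307 in the control group (SD, n = 3). In the 50000 strongest peaks MV411 had 8, 6 and 6 CIITA peaks with DMSO and 5, 7 and 6 with FHT-1015, which overlapped. In the 10000 strongest peaks it had 0, 0 and 0 against 3, 1 and 3. The share of all genes that rose in this way was not computed for that list, so the rise cannot be read as one of CIITA. The part of the genome-wide number in the CIITA counts was not tested beyond these lists. Fewer cells with an open site cannot be told apart from less opening per cell.

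Over all loci, MV411 had 21, 20 and 21 strict peaks with FHT-1015 (20.7 ± 0.577, SD, n = 3), below each of its DMSO samples. As a share of strict peaks this was 0.0389% ± 0.000756 against 0.0285% ± 0.00217 with DMSO, higher in every FHT-1015 sample. The share was likewise higher in every FHT-1015 sample of 22RV1 (mean 0.0273% against 0.0182%) and of A375 (0.0574% against 0.0381%). In the remaining lines the treatments overlapped. In thinned lists both MV411 groups averaged 18.7 peaks. MV411 thus had fewer strict peaks at the loci with FHT-1015, while their share of its strict peaks was higher. A375 had 15, 40 and 19 with FHT-1015, 22RV1 10, 11 and 12, DU4475 12, 9 and 10, HCT116 10, 9 and 9, RD 8, 1 and 9 and 92-1 9, 0 and 0. The low values of RD and 92-1 belong to the libraries with few strict peaks, whose part in these totals was not tested.

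**Figure D4:**
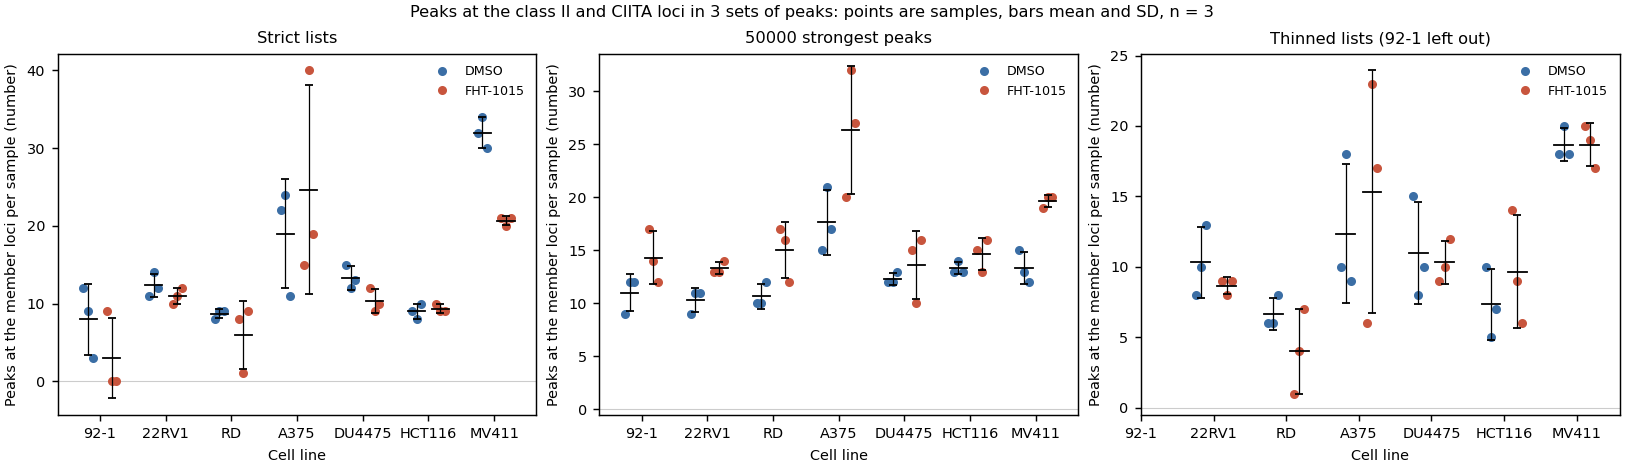
Peaks at the 7 loci per sample in strict lists (left), in the 50000 strongest peaks (middle) and in thinned lists (right, without 92-1), by cell line, DMSO in blue and FHT-1015 in red; points are samples and bars the mean and SD (n = 3). MV411 FHT-1015 samples lie at 20 to 21 against 30 to 34 in the left panel and at 19 to 20 against 12 to 15 in the middle one.

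In MV411, 5 of 10 listed genes had fewer strict peaks in every FHT-1015 sample than in every DMSO sample, against 42.5% of all genes, and none had more. They were CIITA, CD74 (5, 7 and 5 against 4, 3 and 4), HLA-DQA1, the DQ alpha chain (3, 2 and 2 against 0, 1 and 1), and HLA-DPA1 and HLA-DPB1, which share their peaks (2, 3 and 2 against 1, 1 and 0). HLA-DRB1 had 1 peak in each of the 6 samples, HLA-DRA 2, 1 and 1 against 1, 1 and 2, HLA-DQB1 1, 0 and 2 against 0, 1 and 1, and HLA-DMB 2, 2 and 3 against 3, 2 and 2. HLA-DMA had 5, 4 and 6 with DMSO and 7, 6 and 6 with FHT-1015, which overlapped. In DU4475 the 1 such gene was CIITA, against 8.49%, and in 22RV1 it was HLA-DPA1 (1, 1 and 1 against 0, 0 and 0), against 21.2%.

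Single regions gave no call over the 7 lines. A region called in 1 line cannot give p below 0.1 by this exact permutation test. Regions called in few lines could therefore not pass the adjustment whatever their change, and for them the test decides nothing. Of 315054 regions, 4 (0.00127%) were called less often with FHT-1015 and 0 (0.0%) more often, none of them among the 63 at these loci (exact permutation test within lines, adjusted over all regions), and none of the 63 had an unadjusted p below 0.05. The lowest exact permutation p of the 63 was 0.08, at chr16:10862380-10862879, 3.6 kb below CIITA, called in 3 DMSO and 1 FHT-1015 samples each of A375 and MV411. At the HLA loci the lowest were 0.1 at chr6:33061923-33062422 below HLA-DPA1 (3 and 0 samples of MV411), 0.2 at chr6:32969648-32970147 in BRD2 (3 and 1 samples of A375, 1 and 0 of 92-1), 0.4 at chr6:32459744-32460243 above HLA-DRA (0 and 2 of A375), 0.4 at chr6:32623660-32624159 below HLA-DQA1 (2 and 0 of MV411) and 0.35 at the HLA-DRB1 start, by the same exact permutation.

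Counted within lines, 5 of 62 regions present in all 3 DMSO samples were in no FHT-1015 sample, against 22.6% of all regions, and 0 of 47 were gained, against 0.594%. Lost regions lay in MV411, 4 of 23 against 33.0%, and in 22RV1, 1 of 10 against 26.4%. Beside the CIITA region, those of MV411 were chr5:150429568-150430067, 16.9 kb above CD74 (69.0th to 72.4th percentile in DMSO), chr5:150398576-150399075, 2.81 kb below CD74, and chr6:33061923-33062422, 2.4 kb below HLA-DPA1 (41.4th to 77.3th percentile). In the full deposited lists these 3 were present in 3 DMSO samples each and in 0, 2 and 2 FHT-1015 samples, in that order. In thinned lists they were present in 1 against 0, 0 against 0 and 0 against 1 samples. The 22RV1 region was the HLA-DPB1 start at chr6:33075658-33076157, called in 3 DMSO and 0 FHT-1015 samples there, but in 0 and 2 samples of HCT116 and 1 and 2 of MV411.

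**Figure D5:**
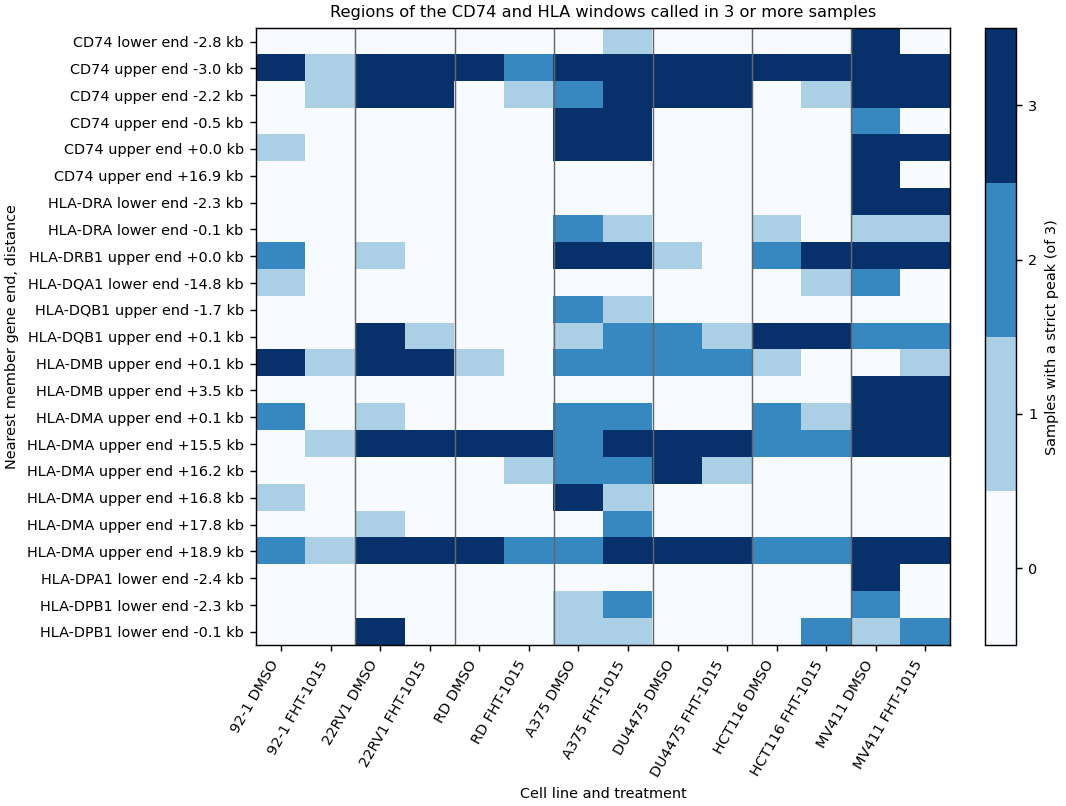
Number of samples (0 to 3, shade) with a strict call at each region of the CD74 and HLA windows called in at least 3 samples, by nearest end of a listed gene and distance in kb (rows) and by line and treatment (columns). Calls in 3 samples with DMSO and 0 with FHT-1015 are seen in MV411 at 2.8 kb below and 16.9 kb above CD74 and 2.4 kb below HLA-DPA1, and in 22RV1 at HLA-DPB1.

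Other regions of MV411 were called in all 6 of its samples. Among them were chr6:32437346-32437845, 2.29 kb below HLA-DRA and called in no other line (69.6th to 78.6th percentile in the DMSO lists, 82.1th to 89.0th in the FHT-1015 lists), and a region 3.48 kb above HLA-DMB, also called in MV411 alone. The start regions of CD74, HLA-DRB1 and HLA-DMA were called in all 6 as well. The region with the most calls at the CD74 locus, chr5:150409699-150410198 inside the gene (−2.96 kb from its upper end, where it starts), was called in 21 of 21 DMSO and 18 of 21 FHT-1015 samples. At the HLA-DMA and HLA-DMB locus the most calls, 35 samples, fell at a start of BRD2, a bromodomain gene of wide expression, 18.9 kb above HLA-DMA.

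In the 50000 strongest peaks, 9 of 10 listed genes had a difference above 0, against 1 of 10 (HLA-DMA) with strict peaks. The median difference of the 10 was 0.62 peaks, against 0.14 over 19476 genes tested, of which 60.8% were above 0. HLA-DPB1 had 0.81 more peaks with FHT-1015 (exact permutation p = 0.000577, adjusted p = 0.0297) and HLA-DMA 1.43 more (exact permutation p = 0.00165, adjusted p = 0.0485). These 2 of 10 compare with 2.34% of all genes called higher, and 0 of 10 with 1.23% called lower. Without 92-1, HLA-DMA had 1.83 more peaks (adjusted p = 0.0136) and HLA-DPB1 0.61 more (adjusted p = 0.104), both by the same exact permutation test.

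By line, HLA-DMA had more of the 50000 strongest peaks in every FHT-1015 sample in MV411 (3, 3 and 3 against 7, 6 and 6), as 12.4% of all genes did, in A375 (5, 5 and 4 against 7, 11 and 7), against 11.8%, and in 22RV1 (3, 4 and 3 against 5, 5 and 7), against 5.76%. In the thinned lists of MV411 it had 4, 3 and 4 against 7, 6 and 5, as did 1.25% of all genes. The HLA-DMA window reaches into BRD2, and the 50000 strongest peaks were split there after the values were seen, without a test. In MV411, peaks inside BRD2 numbered 1 in each DMSO sample and 3 to 4 with FHT-1015, and those outside it 2 in each DMSO sample and 2 to 4. In A375 the counts were 2 and 4 to 7 inside BRD2 and 2 to 3 and 2 to 4 outside it. In 22RV1 they were 1 to 2 and 2 to 4 inside, and 1 to 2 and 2 to 3 outside. The genes HLA-DRB1 (0, 1 and 1 against 2, 3 and 2), HLA-DPA1 (0, 1 and 1 against 2, 3 and 2) and HLA-DPB1 (0, 1 and 1 against 2, 3 and 3) were higher without overlap in 92-1, against 2.9% of all genes, where 2 of the 3 FHT-1015 libraries had 1412 and 2037 strict peaks, so that most of the 50000 were weak.

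Among genes that act upstream of class II expression, 8 of 14 fell and none had more strict peaks by the test, by which 40.3% of all genes fell. The counts of each list are to be read against that share. Over all genes tested the median difference was −0.71, and for the 10 listed genes it was −0.21, with 8 below 0 and 1 above 0. Most listed genes had few strict peaks, and these medians were not matched for peak number. Of 7 promoter factors, 3 fell, all of them NF-Y subunits, which bind the Y box: NFYA fell by 1.19 (adjusted p = 0.00894), NFYB fell by 1.05 (adjusted p = 0.0457) and NFYC fell by 1.19 (adjusted p = 0.0149), while RFX5, RFXAP, RFXANK and CREB1 did not pass. Of 5 genes of interferon gamma signalling, 4 fell: the kinase genes JAK1, which fell by 5.81 peaks, lower in 7 of 7 lines (adjusted p = 0.000154), and JAK2, which fell by 1.48 (adjusted p = 0.0125), the receptor gene IFNGR2, which fell by 1.29 (adjusted p = 0.0209), and IRF1, a transcription factor of this response, which fell by 1.1 (adjusted p = 0.0491). IFNGR1 did not pass. All are counts of strict peaks in the gene and 20 kb around it, tested by the same exact permutation within lines.

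The myeloid factor IRF8 fell by 0.57 peaks (adjusted p = 0.0299) and SPI1 did not pass. LGMN, a lysosomal protease of antigen processing, fell by 1.48 (adjusted p = 0.0114), and CTSS and IFI30 did not pass. None of the 3 other class II genes tested (HLA-DOA, HLA-DOB and HLA-DRB5) passed, and HLA-DQA2 and HLA-DQB2 had too few peaks to test. Of 9 class I genes, 1 passed: NLRC5, the class I counterpart of CIITA, fell by 1.52 peaks (adjusted p = 0.00872). None of these genes had more strict peaks by this exact permutation test. Of these 10 calls, 8 held without 92-1, 6 without the 3 libraries with the fewest strict peaks, 4 in thinned lists, 3 without MV411 (NFYA, JAK1 and NLRC5) and 0 in the 50000 strongest peaks. With windows of 10 kb 5 held, with a replicate block 7, with peaks of q below 0.05 1 and in the deposited lists 0. In DMSO, LGMN had more of the 50000 strongest peaks in every 22RV1 sample than in every sample of the other lines, CREB1 likewise in RD and IRF8 in MV411. Of all genes, 1.26% were higher in this way in 22RV1, 4.56% in RD and 1.51% in MV411, and 16.4% in any line.

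The number of the 50000 strongest peaks in the CIITA window over the 21 DMSO samples was most like that of CAPS2 (Pearson r = 0.846), OGDH (0.843), HK2 (0.837), ME3 (0.828) and SLC37A2 (0.815). This is a description: the samples share lines and list lengths, and the genes were picked from all genes as the closest.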

How the data were processed

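Each of the 42 samples had its own deposited narrowPeak list, so replicates were not pooled. Bowtie2, Picard, MACS2, limma and HOMER and the build hg38 are named in the submitters' processing notes, without versions or roles. The sources used here do not state whether reads were shifted for the transposase or how reads that map to several HLA genes were treated. Peak names carry the word small in 92-1, 22RV1, HCT116 and MV411 and not in RD, A375 and DU4475. Its meaning is not given either, and such a difference in processing cannot be told apart from a difference between lines, so treatments were compared within lines. The authors' lists give a fold enrichment (a ratio to background) and the −log10 p and −log10 q of each peak. These were used to rank, filter and describe peaks within a list. The lists hold no read counts. The background that the deposited values imply, a stand-in for depth, ran from 0.0341 to 2.79 reads over the samples, and whole-number pileups were recovered for 100% of peaks within 0.01 of −log10 p.

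Summits were assigned to RefSeq genes (GRCh38.p14) with 20 kb on each side. Strict peaks had −log10 q of at least 5. Thinned lists kept peaks with −log10 p of at least 5 after pileups were drawn binomially to 0.5 of the lowest background of the line, and 92-1, below 0.1, was left out. The number of strict peaks per gene was tested over the 42 samples with treatment permuted within lines (exact, two-sided), for genes with a strict peak in at least 3 samples, with Benjamini-Hochberg adjustment over all genes at 0.05. Regions of 500 bp were tested likewise by their calls, an overlap of at least 100 bp. Within a line, 3 against 3 samples cannot give p below 0.1, so no test within a line is reported. The tests were checked on simulated data, with changes planted in genes with many strict peaks and in regions lost in most lines. This check did not cover genes with few peaks or regions called in 1 line. Python 3.11.15, numpy 2.4.6, pandas 2.3.3, numba 0.67.0 and matplotlib 3.10.9 were used.

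All 10 genes are named. Regions are named if they had the most calls or the smallest p of their locus or were lost in MV411, pathway genes if they passed the test, and the 5 genes most like CIITA by correlation. Of the pathway list, 1 gene is not reported here. Genes and lists were chosen with earlier results of these data known. Regions given for their place in CIITA, at HLA starts or in one line alone were chosen after their values were seen. Same-numbered replicates were not paired: 1 of 21 correlations of their deviations exceeded 0.1. MV411 is not among the lines that the design text names, and its labels are otherwise alike. Alternatives were the full deposited lists, q below 0.05, windows of 10 and 50 kb, a replicate block, no gene filter and leaving out each replicate or line 92-1 or MV411.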

Additional observations from a re-analysis of the deposited data

How the results depend on the processing

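Of the 10 genes, 1 was called with strict peaks, and 0 with the deposited lists, with q below 0.05, with thinned lists, without 92-1, without MV411 and without the 3 libraries with the fewest strict peaks. The 50000 strongest peaks gave 2, both higher, and 1 when 92-1 was also left out. Windows of 10 and 50 kb, no gene filter and a replicate block gave 1, and leaving out each replicate gave 1 to 1. CIITA differed by −2.52 to −0.22 peaks over the 12 settings other than leave-one-out, with adjusted p of 0.0133 to 0.908. With the replicate block its adjusted p was 0.023 and no other listed gene was called. No region at the loci was called in any setting run, and in none could a region called in 1 line have been.

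Lost regions numbered 5 of 62 called in all DMSO samples of a line, against 11 of 121 in the deposited lists and 8 of 100 at q below 0.05. There were 3 of 53 in the 50000 strongest peaks and 1 of 39 without MV411. Leaving out each replicate gave 5 to 9 (9 of 66 without MV411 DMSO replicate 3). Shares over all regions and all starts are given above for the main setting only. Gained regions numbered 0 of 47 called in all FHT-1015 samples of a line, against 2 of 96 in the deposited lists and 1 of 86 at q below 0.05. There were 2 of 58 in the 50000 strongest peaks, 2 of 29 in thinned lists and 2 of 60 without the 3 libraries. Leaving out each replicate gave 0 to 2 (2 of 53 without A375 FHT-1015 replicate 1). Covered starts numbered 16 of 70, against 34 of 70 in the deposited lists, 31 of 70 at q below 0.05 and 9 of 60 in thinned lists. Leaving out each replicate gave 16 to 19. Lost starts numbered 1 of 16, against 0 of 34 in the deposited lists and 2 of 31 at q below 0.05. There were 2 of 15 in the 50000 strongest peaks and 0 of 9 in thinned lists. Leaving out each replicate gave 1 to 3 (3 of 18 without 92-1 DMSO replicate 3). It gave 2 of 16 without 92-1 FHT-1015 replicate 1 or 22RV1 FHT-1015 replicate 3, and 2 of 17 without MV411 DMSO replicate 3. Genes higher in one DMSO line numbered 0, against 1 in strict lists (CIITA in MV411), 2 in the deposited lists and 1 in the 10000 strongest peaks. Of all 19970 genes, 3275, 4608, 2173 and 2479 were higher in one line, in that order. Leaving out each replicate gave 0 to 1 (1 without A375 or DU4475 DMSO replicate 3).

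Among genes called in either setting, differences that changed sign were those of JAK2 (0.33) and NLRC5 (0.14) in the deposited lists and of HLA-DPB1 (0.81), NFYC (0.38), NLRC5 (0.0952), IFNGR2 (0.0952) and IRF8 (0.0952) in the 50000 strongest peaks. In these peaks without 92-1, they were those of NLRC5 (0.28), IFNGR2 (0.22), NFYC (0.056) and IRF8 (0.056). IRF1 lost its call in 24 and NFYB in 19 of 42 fits that left out 1 replicate. The cause was not tested. Peak lists limit what can be seen: a weak site that misses the threshold in a shallow sample is counted as absent, and intervals on reads could not be given.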
